A study of Mus musculus with 24 samples.

Results

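NRF2 target genes were followed in NIH3T3 cells, a mouse embryonic fibroblast line, after spermidine was given back to polyamine-depleted cultures. The set comprised 10 genes listed by symbol: Gclc, Gclm and Gsr of glutathione metabolism, Srxn1 and Txnrd1 of thiol repair, Nqo1 and Cbr3 of quinone and carbonyl reduction, Me1 and G6pdx of NADPH supply, and Hmox1 of heme breakdown. Each was represented by its probe set with the highest mean, and 9 of the 10 were measured among 19938 genes with a probe set of 1 gene symbol; G6pdx was not analysed here. All cultures had first received 1 mM DFMO, an inhibitor of the polyamine-synthesis enzyme ornithine decarboxylase, for 96 h. The 0 min cultures were collected without added spermidine, and the other cultures at 30, 60, 120, 240, 360, 480 or 600 min after 10 µM spermidine, given with 1 mM aminoguanidine, which blocks serum amine oxidases. Each of the 8 times had 3 biological replicates, and each replicate had its own whole-transcript expression array, 24 in all. The starting point was therefore the DFMO-treated state, cells without DFMO were not analysed here, and the labels leave unstated aminoguanidine use in the 0 min cultures. No culture kept on DFMO alone for the same hours stood beside the later times, so time in culture and spermidine cannot be told apart.

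NRF2, encoded by Nfe2l2, is a transcription factor that is held at a low level by KEAP1, which hands it to the proteasome. Electrophiles and oxidants modify KEAP1, and NRF2 then accumulates, pairs with a small MAF protein and binds the antioxidant response element of its target genes. Those targets make glutathione, reduce thioredoxin and quinones, supply NADPH and break down heme; Hmox1 is also held down by the heme-responsive repressor BACH1, which binds the same kind of element.

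The promoters were searched for the core of that element, TGACNNNGC on either strand, and for the related AP-1 type letters TGANTCA, which can overlap it. RefSeq promoter windows on GRCm38.p6, from 250 bases before to 50 bases after a transcript start, were at hand for 7 of the 10 genes, G6pdx included. The core occurred in at least 1 window of 5 of these 7 genes, compared with 14.0% of the 27025 genes with a window. Some genes had more than 1 window. Counted by window, the core occurred in 5 of 10, compared with 12.4% of all 32851 windows. Nqo1 and Cbr3 had no core in their windows. The AP-1 type letters occurred in 2 of the 7, compared with 9.0% of genes. Gclm, Me1 and Txnrd1 are shown because a window of each held the core before or at the start site. Me1 and Txnrd1 had more than 1 window, and their windows not shown held neither pattern. Srxn1 is shown because it held the AP-1 type letters in 2 places. Its core lay at bases 29 to 37 after the start, outside the stretch shown. G6pdx, whose core lay at bases -57 to -49, is not shown because it has no values here. Capitals mark the matches, and a match describes letters in a window, not a bound site. The stretches are Srxn1 chr2:152105412-152105526 on the plus strand, Gclm chr3:122245413-122245559 on the plus strand, Me1 chr9:86695912-86696014 on the minus strand and Txnrd1 chr10:82859104-82859208 on the plus strand, each read 5′ to 3′ in the direction of the gene.
Srxn1: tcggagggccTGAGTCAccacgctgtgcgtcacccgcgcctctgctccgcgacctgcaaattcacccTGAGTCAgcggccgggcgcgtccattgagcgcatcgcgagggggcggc
Gclm: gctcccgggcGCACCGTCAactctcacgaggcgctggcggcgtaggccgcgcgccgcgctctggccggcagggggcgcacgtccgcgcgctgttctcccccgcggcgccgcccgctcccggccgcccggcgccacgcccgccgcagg
Me1: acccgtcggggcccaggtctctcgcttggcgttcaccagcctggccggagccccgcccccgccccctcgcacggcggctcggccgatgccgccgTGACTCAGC
Txnrd1: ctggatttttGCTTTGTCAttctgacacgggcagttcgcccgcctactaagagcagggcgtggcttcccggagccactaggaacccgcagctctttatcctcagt
In Me1 the matches to both patterns share bases. In Gclm and Txnrd1 the core reads on the opposite strand, so the capitals show its reverse complement.

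The deposited values were log2 RMA values, a summary of probe brightness in which 1 unit is a factor of 2, and probes differ in brightness, so levels were compared only within a gene. The 3 values given for a time are those of replicates 1, 2 and 3, in that order. Array medians lay between 4.40 and 4.45. The first principal component over all genes, which held 63.1% of the variance, separated early from late arrays but placed 2 arrays away from their time. The array labelled 120 min replicate 3 lay at 0.0185, beside 240 min replicates 1 and 2 at 0.0147 and 0.0106. The array labelled 240 min replicate 3 lay at -0.0937, beside 120 min replicates 1 and 2 at -0.0862 and -0.0866. The labels of these 2 arrays may be exchanged, which was not tested and on which every 120 and 240 min value depends. Because the fit pools the spread over all times, these 2 arrays also affect standard errors, adjusted p and calls at the other times. For Nqo1 at 360 min against 0 min the standard error was 0.256 with them and 0.0774 without them. Both arrays were kept as labelled, and results at 120 and 240 min are also given without them. That choice was made after the values were seen and narrows the spread by selection. Counts from the fit without them have no share of all genes to be read against. All 8 fibroblast markers were measured, with 0 min means from 5.90 to 12.7 and a summed level of 81.2 at 0 min and 82.1 at 600 min; Pdgfrb and Vim were called higher at 600 min, by 0.42 and 0.10, and Sparc lower, at -0.11. The 5 epithelial, 4 adipocyte and 5 muscle markers had 0 min means under 5, with Cdh1, Des and Acta1 called lower at 600 min, and the 6 macrophage markers had means from 3.80 to 7.44 and none was called at 600 min.

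Spermidine was followed by higher levels of 8 of the 9 measured genes by 360 min, and by 600 min the set had divided into genes still high, genes back at the starting level and 1 gene, Hmox1, below it. Differences were tested with limma across all 24 arrays, and a gene was called at a Benjamini-Hochberg adjusted p under 0.05 over all 19938 genes. This fit had no replicate block, and calls of the 9 genes that ended with the block are marked. Every measured gene varied over the 8 times, with adjusted p for limma's F-test from 5.23e-09 for Me1 to 0.00396 for Txnrd1; this test called 30.9% of all genes. These are levels in whole cultures, in which fewer cells of a kind and less RNA per cell cannot be told apart.

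Early changes were not detected. At 30 and 60 min against 0 min limma called none of the 9 genes, none had an unadjusted p under 0.05, and their median log2 differences were -0.06 and -0.06; of all genes 0.0150% and 0.0251% were called. At 120 min limma again called none, although 6 had an unadjusted p under 0.05, against 0.471% of all genes called. All 9 means were higher at 120 min, by 0.13 to 0.51 on the log2 scale with a median of 0.30, but in each gene 1 of the 3 arrays, the one labelled replicate 3, was above the other 2. Without the arrays that stood apart the differences at 120 min ran from -0.0040 for Gclc to 0.23 for Cbr3, with a median of 0.096. The fits with the replicate number as a block and without the arrays that stood apart also called none at these 3 times.

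At 240 min 4 of the 9 genes were called higher than at 0 min and none lower, where 0.366% of all genes were called higher and 2.69% lower. They were Cbr3, Gclm, Srxn1 and Hmox1, with a median log2 difference over the 9 genes of 0.39 against 0.00 over all genes. These 4 calls ended with the replicate number as a block, with adjusted p from 0.0641 to 0.0879, and also in each fit that left out 1 of 4 arrays (0 min replicates 1 and 3, 240 min replicates 1 and 2), at 0.0563 to 0.225. The Cbr3 call ended in 19 of the 24 fits that left out 1 array, the Gclm and Srxn1 calls in 5 each and the Hmox1 call in 4. Without the 2 arrays that stood apart all 9 were called higher, with log2 differences from 0.32 for Me1 to 1.10 for Nqo1. The share of all genes called in that fit is not given here. At 360 min 8 were called higher, where 8.47% of all genes were called higher and 10.5% lower, and the median difference was 0.75. At 480 min 7 were called higher, where 9.73% of all genes were called higher and 14.5% lower, with a median of 0.86. At 600 min 6 were called higher, where 11.2% of all genes were, and 1 lower, where 15.7% of all genes were, with a median of 0.83. The median over all genes was 0.01 or less at each of these times. Comparisons with 0 min share its 3 arrays, so they are not independent of each other.

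**Figure D1:**
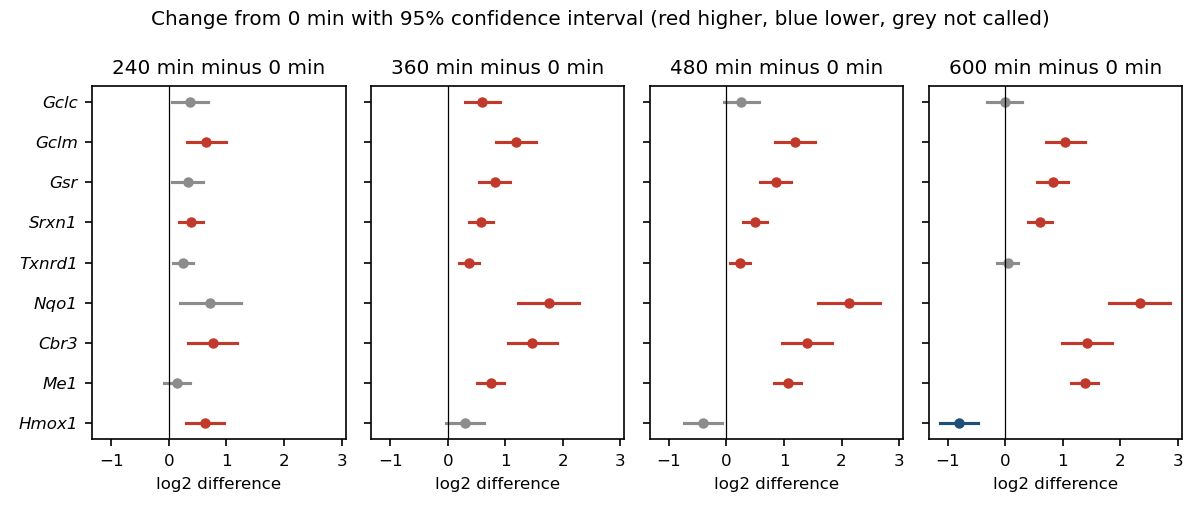
Log2 difference from 0 min of the 9 measured genes at 240, 360, 480 and 600 min, with bars for the 95% confidence interval from limma over 24 arrays; red was called higher, blue lower and grey not called. Nqo1 reached 2.34 at 600 min, Gclc and Txnrd1 were near 0 there, and Hmox1 was at -0.81.

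Gclc and Gclm encode the catalytic and the modifier subunit of glutamate-cysteine ligase, which carries out the first and limiting step of glutathione synthesis. Both subunits were higher at 360 min, but Gclm stayed high to 600 min while Gclc was back near its starting level. Gclc lies at chr9:77754535-77794489 (GRCm38.p6, as for all positions here). Its log2 levels were 8.42, 8.79 and 8.80 (0 min), 8.48, 8.49 and 8.50 (30 min), 8.35, 8.42 and 8.45 (60 min), and 8.63, 8.69 and 9.33 (120 min). They were 9.16, 9.17 and 8.78 (240 min), 9.38, 9.29 and 9.13 (360 min), 9.10, 8.90 and 8.77 (480 min), and 8.81, 8.58 and 8.58 (600 min). The 360 min arrays all lay above the 0 min arrays, and the 480 and 600 min arrays overlapped them. Against 0 min the log2 difference was 0.60 ± 0.15 (SE, n = 3 per time) at 360 min, with a limma adjusted p of 0.00581. It was 0.26 at 480 min and -0.01 at 600 min, where the 95% interval ran from -0.32 to 0.30 and the limma adjusted p was 0.976. From low to high the means ran 60, 30, 600, 0, 120, 480, 240 and 360 min; 0 min did not differ from 600 or 120 min by more than the larger of the SDs, nor did 120 from 480 or 480 from 240 min.

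Gclm lies at chr3:122245487-122267215. Log2 levels of Gclm were 8.59, 8.97 and 8.92 (0 min), 8.64, 8.71 and 8.63 (30 min), 8.92, 8.69 and 8.79 (60 min), and 9.04, 8.89 and 9.75 (120 min). They were 9.60, 9.65 and 9.17 (240 min), 10.11, 10.07 and 9.85 (360 min), 9.98, 10.05 and 10.02 (480 min), and 10.01, 9.84 and 9.74 (600 min). Each array from 240 min on was above each 0 min array. Its log2 difference from 0 min was 0.65 ± 0.16 at 240 min (limma adjusted p 0.0334), 1.19 at 360 min (adjusted p 4.00e-05), 1.19 at 480 min (adjusted p 1.54e-05) and 1.04 at 600 min (adjusted p 5.10e-05). With the replicate number as a block the 240 min adjusted p was 0.0650. Without the arrays that stood apart the 240 min difference was 0.80 (limma adjusted p 5.25e-05). Its highest means, at 360 and 480 min, did not differ by more than their SDs.

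Gsr, at chr8:33653238-33698162, encodes glutathione reductase, which returns oxidised glutathione to its reduced form at the cost of NADPH. On the log2 scale Gsr stood at 7.91, 8.16 and 8.08 (0 min), 7.97, 8.04 and 8.06 (30 min), 8.17, 8.00 and 7.84 (60 min), and 8.16, 8.12 and 8.78 (120 min). They were 8.51, 8.45 and 8.19 (240 min), 8.88, 8.88 and 8.85 (360 min), 8.86, 8.91 and 8.96 (480 min), and 9.01, 8.92 and 8.71 (600 min). The late arrays formed a plateau, all of them above the 0 min arrays, and the 360, 480 and 600 min means lay within their SDs of each other. The log2 difference from 0 min was 0.82 ± 0.13 at 360 min (limma adjusted p 1.44e-04), 0.86 at 480 min (adjusted p 4.05e-05) and 0.83 at 600 min (adjusted p 4.74e-05). At 240 min it was 0.33, with an adjusted p of 0.200. Without the arrays that stood apart it was 0.43 at 240 min (limma adjusted p 0.00325).

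Srxn1 and Txnrd1 serve protein thiols: sulfiredoxin repairs over-oxidised peroxiredoxins, and thioredoxin reductase 1 reduces cytosolic thioredoxin with NADPH. Srxn1 rose and stayed up, whereas Txnrd1 was higher at 360 and 480 min and not at 600 min. Srxn1 lies at chr2:152105524-152111376. Levels of Srxn1, as log2, were 7.10, 7.17 and 7.22 (0 min), 7.05, 7.12 and 7.14 (30 min), 7.29, 7.14 and 7.29 (60 min), and 7.19, 7.30 and 7.72 (120 min). They were 7.69, 7.61 and 7.37 (240 min), 7.78, 7.78 and 7.65 (360 min), 7.69, 7.75 and 7.54 (480 min), and 7.85, 7.76 and 7.71 (600 min). Every array from 240 min on exceeded every 0 min array. Its log2 difference from 0 min was 0.39 ± 0.10 at 240 min (limma adjusted p 0.0379, and 0.0720 with the replicate block), 0.57 at 360 min (adjusted p 3.58e-04), 0.50 at 480 min (adjusted p 8.14e-04) and 0.61 at 600 min (adjusted p 9.02e-05). Without the arrays that stood apart the 240 min difference was 0.48 (limma adjusted p 1.16e-04). The means at 240, 480, 360 and 600 min, in that order, did not differ from their neighbours by more than the larger SD.

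Txnrd1 lies at chr10:82833951-82897724. On the arrays Txnrd1 read, in log2, 9.61, 9.71 and 9.82 (0 min), 9.69, 9.60 and 9.70 (30 min), 9.61, 9.77 and 9.84 (60 min), and 9.81, 9.84 and 10.05 (120 min). They were 10.02, 10.10 and 9.76 (240 min), 10.09, 10.11 and 10.04 (360 min), 10.07, 9.92 and 9.86 (480 min), and 9.87, 9.71 and 9.69 (600 min). This was the smallest span among the 9 genes, 0.42 between its highest and lowest means. At 360 min all arrays were above the 0 min arrays, by 0.37 ± 0.09 on the log2 scale (limma adjusted p 0.00373). The 480 min difference was 0.24 (adjusted p 0.0490), a call that ended with the replicate block (0.0735) and without any 1 of 16 arrays, at up to 0.220 without replicate 1 of 480 min. At 600 min the difference was 0.04, with a 95% interval from -0.13 to 0.22 and a limma adjusted p of 0.794.

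**Figure D2:**
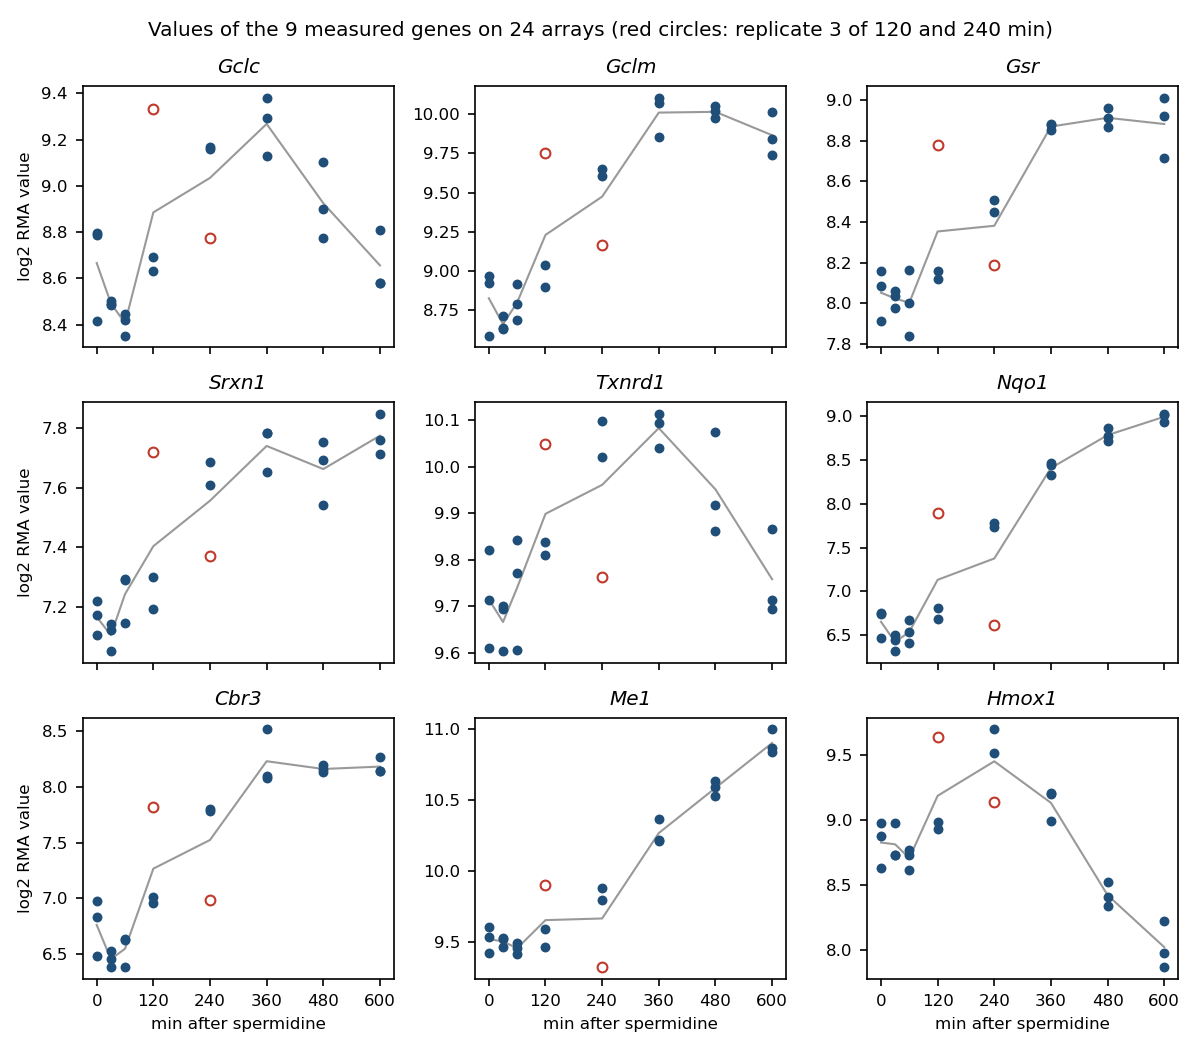
Log2 RMA value of each of the 9 measured genes on the 24 arrays against min after spermidine, with a line through the means of 3 arrays and open red circles for replicate 3 of 120 and 240 min. Nqo1 and Me1 climbed to 600 min, Gclc and Txnrd1 peaked at 360 min, and Hmox1 peaked at 240 min and was lowest at 600 min.

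Nqo1, at chr8:107388225-107403205, encodes the quinone reductase that is the usual reporter of NRF2 activity. It showed the largest difference from 0 min of the 9 genes at 360, 480 and 600 min. Nqo1 had log2 levels of 6.46, 6.74 and 6.76 (0 min), 6.50, 6.44 and 6.32 (30 min), 6.68, 6.54 and 6.41 (60 min), and 6.81, 6.69 and 7.90 (120 min). They were 7.74, 7.78 and 6.61 (240 min), 8.46, 8.32 and 8.44 (360 min), 8.71, 8.77 and 8.87 (480 min), and 8.94, 9.03 and 9.01 (600 min). Every array at 360, 480 and 600 min was above all arrays of earlier times, while 240 min overlapped 0 min through replicate 3 alone. The log2 difference from 0 min was 1.75 ± 0.26 at 360 min (limma adjusted p 6.89e-05), 2.13 at 480 min (adjusted p 3.72e-06) and 2.34 at 600 min (adjusted p 7.66e-07), the last a 5.06-fold difference. At 240 min it was 0.72 with an adjusted p of 0.146, and 1.10 with an adjusted p of 6.00e-07 without the arrays that stood apart. The means at 240, 360, 480 and 600 min were in that order, each further from the one before than the larger SD.

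Cbr3, at chr16:93683219-93690991, encodes carbonyl reductase 3, a cytosolic enzyme of the same broad class of NADPH-dependent reductions. The log2 levels of Cbr3 were 6.48, 6.98 and 6.83 (0 min), 6.45, 6.52 and 6.38 (30 min), 6.63, 6.38 and 6.63 (60 min), and 6.96, 7.02 and 7.82 (120 min). They were 7.79, 7.80 and 6.99 (240 min), 8.52, 8.10 and 8.08 (360 min), 8.16, 8.19 and 8.13 (480 min), and 8.14, 8.14 and 8.27 (600 min). All arrays at 360, 480 and 600 min exceeded all 0 min arrays by more than 1 unit. The log2 difference from 0 min was 1.47 ± 0.21 at 360 min (limma adjusted p 4.57e-05), 1.40 at 480 min (adjusted p 3.19e-05) and 1.42 at 600 min (adjusted p 2.13e-05). At 240 min it was 0.76 (adjusted p 0.0483, and 0.0879 with the replicate block). Without the arrays that stood apart it was 1.03 at 240 min (limma adjusted p 3.31e-05). The 480, 600 and 360 min means did not differ by more than their SDs.

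Me1, at chr9:86581363-86695914, encodes cytosolic malic enzyme, which makes NADPH while turning malate into pyruvate. Me1 stood, in log2, at 9.42, 9.53 and 9.61 (0 min), 9.52, 9.52 and 9.46 (30 min), 9.46, 9.49 and 9.42 (60 min), and 9.47, 9.59 and 9.90 (120 min). They were 9.88, 9.80 and 9.32 (240 min), 10.21, 10.22 and 10.37 (360 min), 10.59, 10.53 and 10.63 (480 min), and 10.99, 10.87 and 10.84 (600 min). It climbed in steps, and the arrays of 360, 480 and 600 min did not overlap each other or any earlier time. The log2 difference from 0 min was 0.75 ± 0.11 at 360 min (limma adjusted p 7.61e-05), 1.06 at 480 min (adjusted p 7.50e-07) and 1.38 at 600 min (adjusted p 1.69e-08), the last a 2.60-fold difference. At 240 min it was 0.14 with an adjusted p of 0.606; the array labelled 240 min replicate 3 was lower than any 0 min array, and without the arrays that stood apart the difference was 0.32 with an adjusted p of 0.00287. A second Me1 probe set gave log2 differences of 0.71, 1.02 and 1.33 at 360, 480 and 600 min.

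Hmox1, at chr8:75093618-75100593, encodes heme oxygenase 1, which opens heme to biliverdin, iron and carbon monoxide. It was higher at 240 min and lower at 600 min than at the start. Its log2 levels were 8.63, 8.98 and 8.88 (0 min), 8.74, 8.73 and 8.98 (30 min), 8.62, 8.77 and 8.74 (60 min), and 8.94, 8.99 and 9.64 (120 min). They were 9.70, 9.52 and 9.14 (240 min), 9.21, 9.20 and 9.00 (360 min), 8.52, 8.41 and 8.34 (480 min), and 8.23, 7.97 and 7.87 (600 min). The 240 min arrays all lay above the 0 min arrays, and the 480 and 600 min arrays all lay below them. The log2 difference from 0 min was 0.63 ± 0.16 at 240 min, with a limma adjusted p of 0.0328 and 0.0641 with the replicate block. It was 0.31 at 360 min (adjusted p 0.215) and -0.41 at 480 min (adjusted p 0.0678). At 600 min it was -0.81 (limma adjusted p 4.74e-04), a level 0.572 of that at 0 min, and this call remained with the replicate block (0.00118) and without any 1 array. Without the arrays that stood apart the values were 0.78 at 240 min (limma adjusted p 1.61e-04), 0.31 at 360 min (0.0327, and 0.0503 with the block) and -0.41 at 480 min (0.00395). From low to high the means ran 600, 480, 60, 30, 0, 360, 120 and 240 min, and each of 60, 30 and 0 min was within the larger SD of its neighbour, as was 120 min of both 360 and 240 min. The late departure of Hmox1 was known when the set was chosen. Its late tests, here and below, are therefore descriptions and not independent support.

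The steps between neighbouring times place these changes. From 30 to 60, from 60 to 120 and from 120 to 240 min limma called none of the 9 genes; it called 0.0451%, 0.411% and 0% of all genes. Without the arrays that stood apart 7 of the 9 were called higher at 240 than at 120 min. The 0% does not apply to that fit, whose share over all genes is not given here. From 240 to 360 min 4 were called higher, and none lower, where 4.25% of all genes were called higher and 1.80% lower. Me1 gained 0.60 on the log2 scale (limma adjusted p 0.00325), Nqo1 1.03 (adjusted p 0.0212), Gsr 0.49 (adjusted p 0.0286) and Cbr3 0.71 (adjusted p 0.0461). The Gsr and Cbr3 calls ended with the replicate block (0.0533 and 0.0787), and those of Nqo1, Gsr and Cbr3 ended without replicate 3 of 240 min, where the gains were 0.65, 0.39 and 0.44 (limma adjusted p 0.167, 0.200 and 0.331). Without the 2 arrays that stood apart the Me1, Nqo1 and Gsr calls remained (limma adjusted p 5.15e-04, 2.38e-04 and 0.0144). Gclm was then called higher, by 0.38 (limma adjusted p 0.0468, and 0.0666 with the block). The Cbr3 call ended (0.0649), as it did in 17 of the 24 fits that left out 1 array. The shares above do not apply to the fit without the 2 arrays. Over the same interval the Hmox1 difference was -0.32, and without those 2 arrays it was -0.48 (limma adjusted p 0.0214, and 0.0533 with the block).

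From 360 to 480 min Hmox1 was the 1 gene of the set that was called, lower by a log2 difference of -0.71 (limma adjusted p 0.0394), where 0.291% of all genes were called higher and 0.321% lower. This call ended with the replicate block (0.0853) and in 13 of the 24 fits that left out 1 array, at up to 0.155. Without the 2 arrays that stood apart its limma adjusted p was 8.13e-04. That fit also called Nqo1 and Me1 higher, by 0.375 and 0.318 (limma adjusted p 0.0193 and 0.00573). The shares above do not apply to that fit. From 480 to 600 min none of the 9 was called, where 0.181% of all genes were; Me1 was called higher, by 0.32, without the 2 arrays (limma adjusted p 0.0120).

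Early and late times were also compared as pools. The mean of 360, 480 and 600 min was higher than the mean of 30, 60 and 120 min for 8 of the 9 genes and lower for Hmox1, where 16.4% of all genes were called higher and 19.4% lower. The log2 difference was 2.03 for Nqo1, 1.44 for Cbr3, 1.07 for Gclm, 1.05 for Me1, 0.76 for Gsr, 0.48 for Srxn1, 0.36 for Gclc and 0.16 for Txnrd1, the smallest, with a limma adjusted p of 0.0124. For Hmox1 it was -0.38 ± 0.09 (limma adjusted p 0.00204).

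Hmox1 departed from the mean of the other genes after 240 min. With each gene set to its own 0 min mean, Hmox1 minus the mean of the other 8 genes was 0.24, 0.07 and 0.21 on the 3 arrays of 240 min. It was -0.63, -0.56 and -0.71 at 360 min, -1.28, -1.38 and -1.42 on the 480 min arrays, and -1.64, -1.79 and -1.86 on the 600 min arrays. On those last arrays the mean of the other 8 was 1.03, 0.94 and 0.90 above its start while Hmox1 was at -0.60, -0.85 and -0.96. Against single genes the gap at 360 min was small. Hmox1 stood there at 0.378, 0.371 and 0.169, and the lowest of the other 8 at 0.379, 0.400 and 0.327. On the 480 min arrays Hmox1 was at -0.31, -0.42 and -0.49, and the lowest of the other 8 at 0.36, 0.20 and 0.11. The late departure of Hmox1 was known when the set was chosen, so these are descriptions and the difference was not tested.

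**Figure D3:**
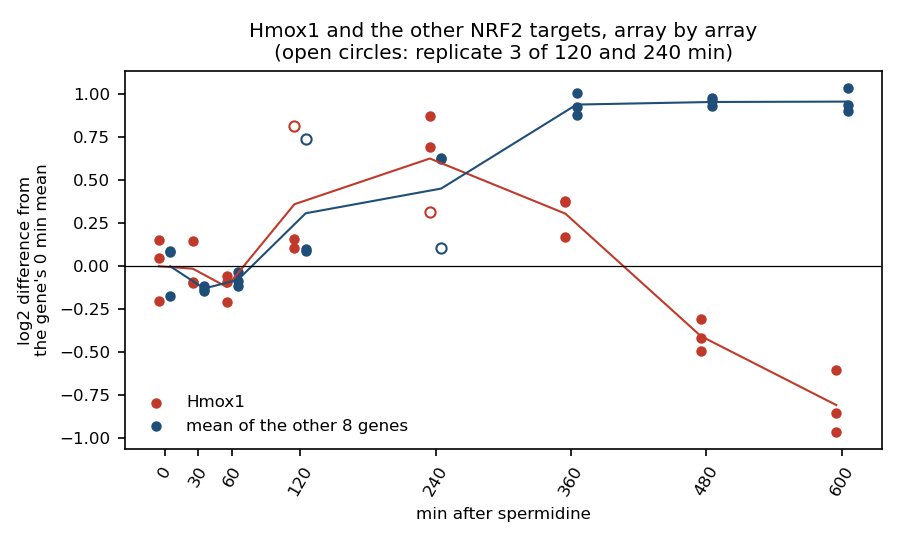
Log2 difference from each gene's own 0 min mean, for Hmox1 (red) and for the mean of the other 8 genes (blue), on each of the 24 arrays against min after spermidine; lines join the means of 3 arrays and open circles are replicate 3 of 120 and 240 min. From 360 min on every red point lies below every blue point of the same time.

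The time courses of the 9 genes were compared by Pearson correlation over the 8 time means, which share arrays within a time, as a description. Against the mean of the other genes without Hmox1, Gclm, Gsr, Cbr3, Srxn1, Nqo1 and Me1 had correlations from 0.89 to 0.99, Txnrd1 0.67 and Gclc 0.63, and Hmox1 -0.29. Against Hmox1 the correlation was 0.48 for Gclc and 0.44 for Txnrd1, and -0.64 for Me1. The time means of 2596 genes spanned at least 0.5, and unnamed gene models among them were passed over. Of the rest, those most like Hmox1 were Fnbp4 (0.924), Dph2 (0.906), Snord49a (0.905), Srgap1 (0.905) and Maoa (0.901). Those 5 genes were lower at 600 min, with log2 differences from -0.32 for Snord49a to -0.57 for Srgap1, but none of them was called at 240 min. Those most like the mean of the other 8 genes were Cbr3 (0.997), Txndc11 (0.996), Ccne1 (0.996), Gsr (0.995) and Magee1 (0.995); Cbr3 and Gsr are themselves part of that mean. Ccne1, which encodes cyclin E1, had a log2 difference of 1.32 at 600 min.

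The wider pathway was read from lists of 100 other genes by role, 93 of them measured. At 600 min 28 were called higher and 24 lower than at 0 min, with a median log2 difference of 0.04, where 26.9% of all genes were called. At 360 min 20 were higher and 14 lower, against 8.47% and 10.5% of all genes. At 480 min 24 were higher and 22 lower, against 9.73% and 14.5% of all genes. So the wider lists moved in both directions.

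Among 12 measured regulators 2 were called higher and 5 lower at 600 min, against 11.2% and 15.7% of all genes. Their median log2 difference was -0.10. Nfe2l2, which encodes NRF2 itself, had log2 levels of 9.86, 9.69 and 9.62 (0 min), 9.21, 9.22 and 9.40 (360 min), and 9.43, 9.41 and 9.42 (600 min). All of the later arrays were below the 0 min arrays, by -0.45 at 360 min (limma adjusted p 5.63e-05) and -0.30 at 600 min (adjusted p 0.00106). Keap1 was higher at 600 min by 0.31 (limma adjusted p 0.0148), a call that ended without replicate 2 of 0 min (0.113). Bach1, the repressor of Hmox1, differed by 0.28 at 480 min (limma adjusted p 0.0483, and 0.0721 with the replicate block) and by 0.09 at 600 min (adjusted p 0.587). Sqstm1, whose product p62 binds KEAP1 and which is itself an NRF2 target, fell by 0.80 on the log2 scale at 600 min (limma adjusted p 8.48e-10), and Mafk, a small MAF partner of NRF2, had a difference of -0.79 (adjusted p 3.82e-04). Dpp3, which encodes a KEAP1-binding peptidase, was higher by 0.28 (limma adjusted p 0.0106, and 0.0513 without replicate 3 of 0 min).

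The next list held 9 measured genes of NADPH supply and the pentose phosphate pathway. At 600 min 5 were called higher and 3 lower, against 11.2% and 15.7% of all genes. Their median log2 difference was 0.26. Idh1, cytosolic isocitrate dehydrogenase, had log2 levels of 9.06, 8.99 and 9.13 (0 min), 10.03, 10.05 and 10.10 (360 min), and 10.80, 10.91 and 10.96 (600 min). Its arrays did not overlap between these times, and the 600 min difference was 1.83 (limma adjusted p 4.93e-08). Of the pentose phosphate enzymes, Pgd was higher by 0.94 (limma adjusted p 3.92e-07) and Tkt by 0.59 (adjusted p 5.93e-06), while Rpe had a log2 difference of -0.95 (adjusted p 3.33e-08).

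Among 26 measured glutathione genes 5 were called higher and 5 lower at 600 min, against 11.2% and 15.7% of all genes. Their median log2 difference was 0.04. Gss, glutathione synthetase, which follows the Gclc and Gclm step, had log2 levels of 7.81, 7.94 and 7.89 (0 min), 7.42, 7.34 and 7.42 (360 min), and 6.98, 6.59 and 6.51 (600 min). Each later time lay wholly below 0 min, and the 600 min difference was -1.19 (limma adjusted p 3.14e-08). Gpx1, a glutathione peroxidase, differed by -0.70 (limma adjusted p 1.24e-05) and Chac1, a glutathione-degrading enzyme, by -0.91 (adjusted p 0.00104), while the transferase gene Gsta4 was higher by 0.92 (adjusted p 4.68e-06). Slc7a11 and Gstm1 are named after their values were seen. Slc7a11, the cystine carrier and a well-known NRF2 target, had a difference of -0.69 (limma adjusted p 0.00281), and the transferase gene Gstm1 had one of 0.71 (adjusted p 1.89e-04).

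Among 10 measured thioredoxin and peroxiredoxin genes 1 was called higher and 4 lower at 600 min, against 11.2% and 15.7% of all genes. Their median log2 difference was -0.04. Txnip, which binds and inhibits thioredoxin, had a difference of -1.04 (limma adjusted p 1.88e-05). It was already at -0.92 at 120 min (limma adjusted p 0.00824, and 0.0749 without replicate 1 of 0 min). Without the arrays that stood apart its 120 min adjusted p was 0.00567. Mitochondrial Prdx3 had -0.27 (limma adjusted p 1.09e-04) and Msra -0.11 (adjusted p 0.0130, and 0.0672 without replicate 3 of 0 min). Txnrd3, a relative of Txnrd1, was higher by 0.48 (limma adjusted p 2.93e-04).

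Among 18 measured quinone and carbonyl genes 6 were called higher and 5 lower at 600 min, against 11.2% and 15.7% of all genes. Their median log2 difference was 0.04. Ugdh, which makes UDP-glucuronate, was higher by 0.23 (limma adjusted p 2.01e-04). Akr1b8, an aldo-keto reductase, had -0.41 (limma adjusted p 3.06e-06), Aldh3a2, an aldehyde dehydrogenase, -0.29 (adjusted p 2.59e-04) and Ephx1, microsomal epoxide hydrolase, -0.25 (adjusted p 7.78e-05).

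Among 18 measured heme and iron genes 9 were called higher and 2 lower at 600 min, against 11.2% and 15.7% of all genes. Their median log2 difference was 0.12, and Hmox1 was not in this list. Blvra, biliverdin reductase, which acts on the product of Hmox1, was higher by 0.82 (limma adjusted p 6.21e-08) and Hmox2, the constitutive heme oxygenase, by 0.54 (adjusted p 5.76e-05). The heme synthesis genes Uros and Cpox had differences of -0.99 (limma adjusted p 5.41e-06) and -0.43 (adjusted p 0.00454).

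**Figure D4:**
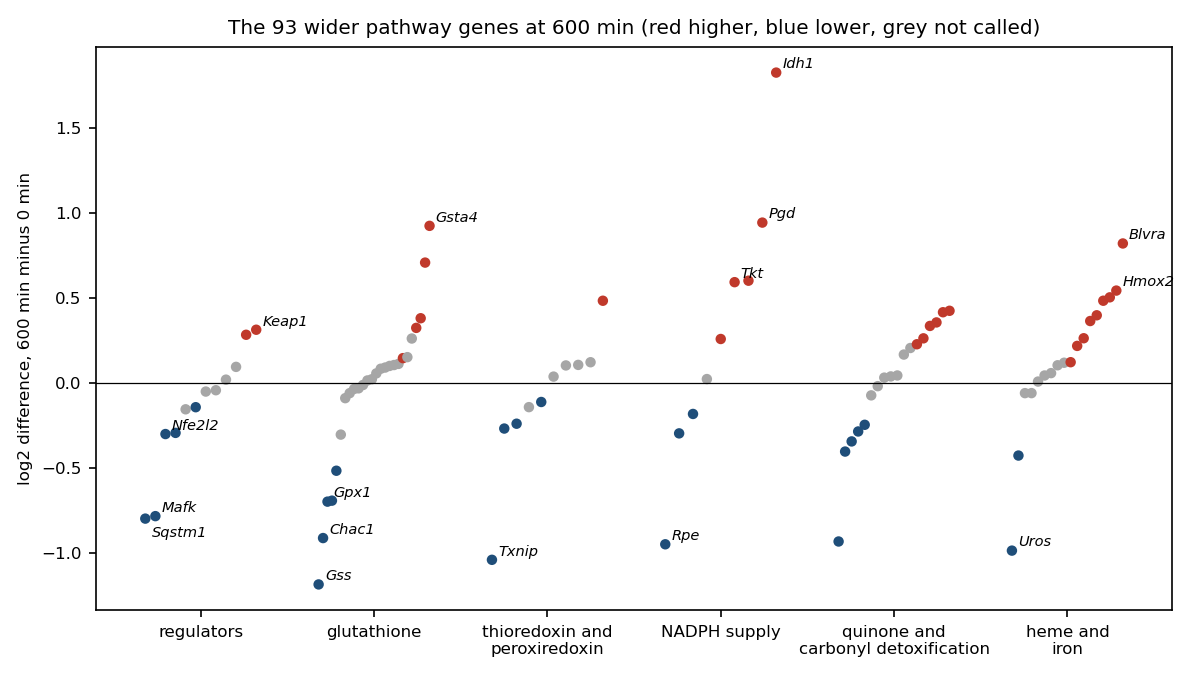
Log2 difference between 600 and 0 min for the 93 measured genes of the wider lists, grouped by role and sorted within each role; red was called higher, blue lower and grey not called by limma. Idh1 had the highest value, 1.83, and Gss the lowest, -1.19.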

How the data were processed

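Total RNA of the 24 cultures, 200 ng each, was labelled and hybridised to a mouse whole-transcript gene array. The authors deposited log2 values from RMA, with Partek named beside it in the submitters' processing notes; versions are not given in the sources used here. Among 35399 probe sets were 21789 with 1 gene symbol in the platform annotation; 1621 with several and 11989 with none were left out. The 999 genes with several probe sets were represented by the one with the highest mean, giving 19938 genes; 83 symbols had no RefSeq match and kept the file's name. For each probe set the 3 replicate numbers had equal means over the 8 times (median gap 5e-06), so an effect of the number had been taken out before deposit; the fit with the number as a block accounts for the degrees of freedom this uses. After that removal the data cannot show whether the numbers paired the arrays.

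The 8 times were fitted with limma 3.58.1 in R 4.3.3 (residual df 16, prior df 3.48), without a block, and p-values were adjusted by Benjamini-Hochberg over all genes. The median standard error of a difference was 0.0567, and precision is limited by 3 arrays per time. The fitting code was tested on simulated data. Alternatives were the replicate block, fits on the compared times alone, a second quantile normalization, a filter at the median mean, an intensity trend, the mean of all probe sets, leaving out each array, and, chosen after the data were seen, leaving out 2 arrays. All 9 measured genes are named at every time; of each wider list up to 4 genes with the smallest F-test p are named, and Nfe2l2, Keap1 and Bach1 always; Slc7a11 and Gstm1 were added after their values were seen. Genes alike in time course were the 5 with the highest correlation, passing over unnamed gene models. Members and lists were chosen with earlier results of these data known.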

Additional observations from a re-analysis of the deposited data

How the results depend on the processing

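Of the 9 genes, the count called at 360 and 600 min against 0 min stayed at 8 and 7 whichever 1 array was left out, and all 9 kept their F-test and late against early calls. The count at 480 min ranged from 6 to 8, at 240 min from 0 to 7, for 120 against 60 min from 0 to 1, for 360 against 240 min from 1 to 5 and for 480 against 360 min from 0 to 1. Deviations of same-numbered arrays correlated at a median of -0.153 over 84 pairs (-0.533 to 0.182), and those of arrays differing in number and time at 0.078, but equal means of the numbers push the first value below 0, so pairing cannot be told from it. With the replicate block the counts were 6 at 480 min, 0 at 240 min, 2 for 360 against 240 min and 0 for 480 against 360 min, with 1 wider-list gene at 240 min. Fitting only the compared times gave 0 at 240 min, 0 for 360 against 240 min and 2 for 480 against 360 min, and 0 wider-list genes at 120 and 0 at 240 min. Quantile normalization once more gave 0 for 480 against 360 min and ended the Cbr3 call for 360 against 240 min (limma adjusted p 0.0526), and the filter and the trend each gave 2 wider-list genes at 120 min. Without the 2 arrays that stood apart the counts were 9 at 240 min, 7 for 240 against 120 min, 3 for 480 against 360 min and 1 for 600 against 480 min, the same counts with the block added. Of the wider lists 1 was called at 60 min and 15 at 240 min (14 with the block). Of the 9 genes that fit called 4 higher and 1 lower for 360 against 240 min, and the block ended the Gclm and Hmox1 calls. Shares of all genes called without the 2 arrays are not given here. Leaving out 1 array gave 0 to 2 wider-list genes at 120 min, 1 to 11 at 240 min, 23 to 37 at 360 min, 35 to 50 at 480 min and 43 to 53 at 600 min.

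Signs turned in differences that were not called. The Gclc difference at 120 min was -0.0040 without the 2 arrays and -0.020 with the block added, that of Gclc at 600 min was 0.054 after quantile normalization, and that of Srxn1 for 120 against 60 min was -0.0083 without the 2 arrays and with the block. When 1 array was left out, the ranges that crossed 0 at 30 min were -0.11 to 0.062 for Hmox1, -0.10 to 0.0043 for Txnrd1, -0.067 to 0.025 for Me1 and -0.098 to 0.025 for Gsr. At 60 min they were -0.15 to 0.045 for Gclm, -0.027 to 0.093 for Txnrd1 and -0.13 to 0.031 for Gsr. At 120 min Gclc ranged from -0.0040 to 0.35, and at 600 min Gclc from -0.13 to 0.055 and Txnrd1 from -0.010 to 0.096. Between neighbouring times Gsr ranged from -0.10 to 0.059 (60 against 30 min), Txnrd1 from -0.0069 to 0.16, Me1 from -0.094 to 0.18 and Gsr from -0.088 to 0.24 (240 against 120 min), Gclm from -0.073 to 0.052 and Cbr3 from -0.15 to 0.073 (480 against 360 min), and Gsr from -0.095 to 0.053 and Cbr3 from -0.020 to 0.043 (600 against 480 min). The cause was not tested.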
